A study of Arabidopsis thaliana with 6 samples.

Results

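Transcripts of 10 enzymes that make or inactivate the plant hormone jasmonate were followed in seedlings of Arabidopsis thaliana, as counts of RNA-seq reads per gene. The 10 are the gene codes of LOX2, LOX3, LOX4, AOS, AOC1, AOC2, AOC3, OPR3, JAR1 and CYP94B3, picked by name from the 32313 gene codes of the count table, and all 10 passed the filter on low counts. Seedlings of line BP12-2, described in the labels as a knockdown of the TOR kinase, were set against seedlings of the Columbia wild type (WT), with 3 libraries each. BP12 lines carry yeast FKBP12, which lets rapamycin act on plant TOR, but the labels do not give the promoter of the transgene, and only 1 line was used. All 6 libraries came from plants in the Columbia background that had reached 15 days after germination and then spent 3 days on 0.5 strength MS medium with rapamycin at 10 µg/ml. Control seedlings on solvent were not analysed here, so a difference that exists without the drug cannot be told apart from a response to it. Whether the 3 libraries of a genotype came from plants grown apart is not stated. The p-values may therefore not reflect the spread between independently grown plants.

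Jasmonate is made from linolenic acid of plastid membranes. Lipoxygenases oxidise the fatty acid, allene oxide synthase (AOS) and allene oxide cyclase (AOC) turn the product into oxophytodienoic acid (OPDA), and OPR3 reduces OPDA in the peroxisome, where shortening of the chain completes jasmonic acid. JAR1 joins jasmonic acid to isoleucine, which gives the form that the COI1 receptor binds, and CYP94B3 inactivates that conjugate by hydroxylation. In leaves the pathway is best known for its induction by wounding and insect feeding, and jasmonate raises the transcripts of many of its own enzymes.

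The AOC genes include tandem copies, and a stretch of coding sequence is shown because reads of near-identical stretches cannot be assigned with certainty. In the TAIR10.1 annotation AOC1 (chr3:9403779-9405338), AOC2 (chr3:9406669-9408071) and AOC3 (chr3:9409160-9411090) lie side by side on the plus strand. The longest coding run that AOC1 and AOC3 share is 73 bases. It is printed 5′ to 3′ on the coding strand with the matching stretch of the other genes, and capitals mark bases unlike AOC1.
AOC1: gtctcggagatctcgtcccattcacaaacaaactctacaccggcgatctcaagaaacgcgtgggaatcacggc
AOC2: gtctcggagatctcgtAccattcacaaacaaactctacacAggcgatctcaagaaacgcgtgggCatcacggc
AOC3: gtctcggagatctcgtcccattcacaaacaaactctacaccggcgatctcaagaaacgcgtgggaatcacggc
AOC4: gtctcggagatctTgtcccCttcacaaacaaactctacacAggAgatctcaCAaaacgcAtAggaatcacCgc
In this stretch AOC2 differed from AOC1 at 3 bases and AOC4, which lies on chromosome 1, at 9. Over whole transcripts, 2.1% of the 50-base words of AOC1 were shared with AOC3, and 1.6% of those of AOC3 and 0.1% of those of AOC2 with other genes. Reads from such words are uncertain, and the share of the counts they hold was not measured. Stretches that differ at a few bases, as in AOC2 above, do not count as shared here. The other 7 enzymes shared no 50-base word with another counted gene, and the exons of none of the 10 overlapped an annotated exon of another gene.

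Upstream of the genes, the windows of 250 bases before the annotated starts of AOC1 and AOC2 shared a run of 19 bases, the longest among the 45 pairs of the 10 genes, where the next longest was 11. The windows are shown for TAIR10.1 (RefSeq), plus strand, at chr3:9403529-9403778 for AOC1 and chr3:9406419-9406668 for AOC2, with the shared run in capitals. In AOC1 the run ends 98 bases before the annotated start. In AOC2 it ends at the start, which is the edge of the window. Sequence past the annotated starts was not searched, so whether the run goes on there was not examined.
AOC1: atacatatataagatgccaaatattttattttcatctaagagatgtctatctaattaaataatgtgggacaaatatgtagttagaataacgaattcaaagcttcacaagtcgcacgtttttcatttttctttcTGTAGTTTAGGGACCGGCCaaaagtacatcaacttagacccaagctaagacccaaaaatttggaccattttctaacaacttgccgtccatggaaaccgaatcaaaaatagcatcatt
AOC2: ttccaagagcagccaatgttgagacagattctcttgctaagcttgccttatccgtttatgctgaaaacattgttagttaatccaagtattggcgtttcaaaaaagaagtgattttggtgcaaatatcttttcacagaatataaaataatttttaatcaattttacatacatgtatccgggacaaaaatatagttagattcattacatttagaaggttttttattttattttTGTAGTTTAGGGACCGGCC
The motif CACGTG, the G-box to which MYC-type factors of jasmonate signalling bind, reads the same on both strands. It was found upstream of AOS alone among the 10 genes, against 6.6% of 26641 windows of the same length before protein-coding genes. The window of AOS (chr5:17099596-17099845, minus strand) is shown with the motif in capitals, directly before the annotated start.
AOS: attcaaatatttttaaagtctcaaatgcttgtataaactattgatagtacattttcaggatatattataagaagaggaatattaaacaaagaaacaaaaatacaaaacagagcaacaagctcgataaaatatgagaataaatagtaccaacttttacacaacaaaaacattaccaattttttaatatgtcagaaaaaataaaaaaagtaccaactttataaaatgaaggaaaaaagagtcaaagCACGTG
The evening element AAAATATCT, a motif of clock-controlled genes searched on both strands, was found upstream of LOX3 alone, against 2.4% of all windows. The variant AACGTG, searched on both strands, was found upstream of LOX4 and AOC1 (2 of 10), against 7.6% of all windows. Such matches describe the letters of these windows only.

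Read totals ran from 6706610 to 17092773 per BP12-2 library and from 7611017 to 16371859 per WT library. Levels are given as CPM, counts scaled to library size with TMM factors, and log2 fold changes are BP12-2 over WT from the edgeR quasi-likelihood test, with Benjamini-Hochberg adjustment over the 19436 genes tested and a threshold of 0.05. The TOR transcript measured 32.4, 27.8 and 32.6 CPM in BP12-2 against 34.3, 35.9 and 38.5 CPM in WT (log2 fold change -0.22 ± 0.10 SE, edgeR adjusted p = 0.292), though rapamycin acts on the TOR protein and the transcript does not check the label. BP12-2 replicate 1 and WT replicate 3 stood apart in circadian clock transcripts. LHY, a morning clock gene, had 23.2 CPM in BP12-2 replicate 1 and 27.0 CPM in WT replicate 3, against 140 to 193 CPM in the other 4 libraries. The morning gene CCA1 had 124 and 102 CPM there, against 154 to 241 CPM. PRR9, also listed as a morning gene, did not separate them (43.3 and 49.2 CPM, against 42.6 to 52.7 CPM). Evening clock genes summed to 285 and 313 CPM there, against 121 to 133 CPM. Seedling identity was checked with tissue markers. Summed, 5 green leaf markers had 31007 to 33573 CPM in BP12-2 and 24194 to 26543 CPM in WT. The sum of 7 root markers was 368 to 449 CPM in BP12-2 and 232 to 338 CPM in WT. Taken singly, 3 of the 5 leaf and 2 of the 7 root markers did not overlap between BP12-2 and WT, against 24.3% of all genes tested. Of 6 flower and pollen markers 5 were too low to test. Column names of the table carry a code whose first part is one for every BP12-2 library and another for every WT library. The second part of the code differs from library to library. No label explains the code, and the effect of its first part and that of the genotype cannot be told apart.

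None of the 10 jasmonate enzymes passed the test between BP12-2 and WT. By the edgeR quasi-likelihood test 0 of 10 were called, where 0.0669% of all genes tested were called (0.0617% lower in BP12-2), and 3 of 10 (LOX3, LOX4 and AOC3) had an unadjusted p under 0.05, against 18.2% of all genes. The log2 fold changes of 8 enzymes were below 0 and those of AOC2 and CYP94B3 above it. Their median was -0.31, against 0.01 over all genes tested, of which 49.2% had values below 0. For LOX4 and AOC3 the BP12-2 and WT libraries did not overlap, with BP12-2 lower, which is 2 of 10 enzymes, against 12.2% of all genes that were lower in this way and 24.3% in either direction. The edgeR exact test called 1 of the 10, AOC3 (adjusted p = 0.0482), where it called 4.33% of all genes. DESeq2 and limma voom called 0 of the 10, where they called 3.25% and 0.113% of the genes they tested.

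**Figure D1:**
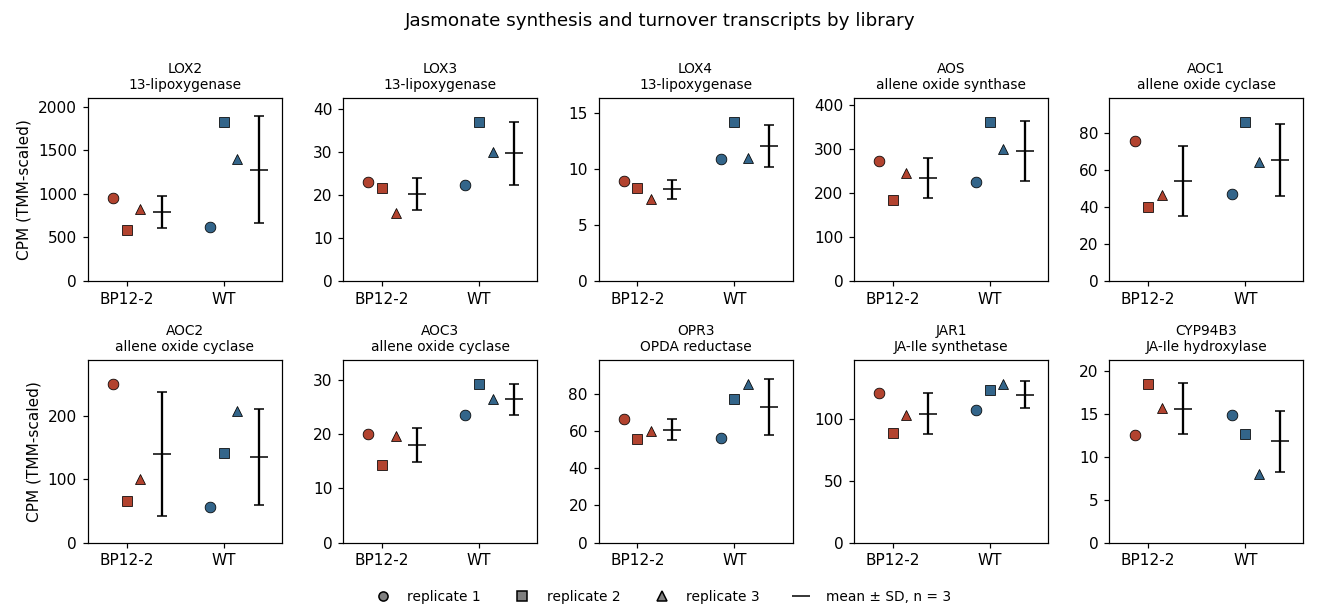
TMM-scaled CPM of the 10 enzymes on linear axes from 0, with BP12-2 left of WT in each panel; symbols are the 3 replicates and bars give the mean ± SD. The LOX4 and AOC3 libraries separate by genotype, while those of LOX2 and AOC2 overlap widely.

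The lipoxygenases perform the first oxidation of the fatty acid, and their product also feeds other branches. LOX2 (AT3G45140, chr3:16525245-16529352), the plastid enzyme behind most of the jasmonate made in wounded leaves, had 957, 588 and 827 CPM in BP12-2 replicates 1 to 3, against 614, 1821 and 1394 CPM in WT replicates 1 to 3. WT replicate 1 lay within the BP12-2 range and the other WT libraries above it. The log2 fold change of LOX2 was -0.69 ± 0.37 (SE; edgeR adjusted p = 0.368), and it was -0.34 without WT replicate 2 and -1.02 without WT replicate 1.

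LOX3 and LOX4, the lipoxygenases that stamens need for fertility, were far lower than LOX2 per length. LOX3 (AT1G17420, chr1:5977323-5981521) had 23.2, 21.7 and 15.9 CPM in BP12-2 and 22.3, 37.0 and 30.0 CPM in WT. Its groups overlapped by the narrow margin between BP12-2 replicate 1 and WT replicate 1, with a log2 fold change of -0.58 ± 0.21 (SE; edgeR adjusted p = 0.213). LOX4 (AT1G72520, chr1:27308513-27312756) had 8.98, 8.27 and 7.33 CPM in BP12-2 and 10.9, 14.2 and 11.0 CPM in WT. Every BP12-2 library lay below every WT library, and the log2 fold change of -0.57 ± 0.16 (SE) did not pass (edgeR adjusted p = 0.137). LOX6, the remaining lipoxygenase of this branch, was at 53.6 ± 4.98 CPM in BP12-2 and 58.8 ± 3.64 CPM in WT (SD, n = 3 each).

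AOS (AT5G42650, chr5:17097564-17099595), the only allene oxide synthase of the plant, had 274, 185 and 246 CPM in BP12-2 and 226, 362 and 300.2 CPM in WT. As for LOX2, WT replicate 1 lay among the BP12-2 libraries. The log2 fold change was -0.34 ± 0.20 (SE; edgeR adjusted p = 0.427).

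Allene oxide cyclase sets the stereochemistry of OPDA, and of its 3 tandem genes AOC1 and AOC3 were highest in WT replicate 2 and AOC2 in BP12-2 replicate 1. AOC1 (AT3G25760) had 75.8, 40.2 and 46.5 CPM in BP12-2 and 46.9, 85.8 and 64.3 CPM in WT, with a log2 fold change of -0.28 ± 0.28 (SE; edgeR adjusted p = 0.648). AOC2 (AT3G25770) had 250.2, 65.9 and 101 CPM in BP12-2 and 56.9, 141 and 207 CPM in WT, with a log2 fold change of 0.04 ± 0.56 (SE; edgeR adjusted p = 0.984). AOC2 was the most variable of the 10, with its highest library 3.80 times its lowest within BP12-2 and 3.64 times within WT.

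AOC3 (AT3G25780) had 19.96, 14.3 and 19.7 CPM in BP12-2 and 23.6, 29.2 and 26.4 CPM in WT. The groups did not overlap, and the log2 fold change was -0.54 ± 0.15 (SE; edgeR adjusted p = 0.135). AOC4, the cyclase gene on chromosome 1, was at 63.8 ± 11.7 CPM in BP12-2 and 64.8 ± 5.46 CPM in WT (SD, n = 3 each).

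The 2 highest libraries of AOC2 were BP12-2 replicate 1 and WT replicate 3, the libraries that stood apart in clock transcripts, and AOC2 was the only one of the 10 for which both lay above all 4 others. The share of all genes tested with this order was not counted, so how common it is remains unknown. In these 2 libraries AOC2 took 59.2% (95% Wilson interval 57.7 to 60.7) and 56.3% (55.0 to 57.5) of the counts of the 4 AOC genes. In the other libraries its share was 37.9% (35.2 to 40.8) and 44.2% (42.7 to 45.8) in BP12-2 replicates 2 and 3, and 30.5% (28.2 to 32.9) and 44.0% (42.5 to 45.4) in WT replicates 1 and 2. These intervals cover counting error only. By genotype the share of AOC2 was 47.1 ± 10.9% in BP12-2 and 43.6 ± 12.9% in WT (SD, n = 3 each), a difference smaller than the spread within either group. In log2 CPM, AOC2 was 1.61 higher in BP12-2 replicate 1 than in the mean of the other BP12-2 libraries, and 1.21 higher in WT replicate 3 than in the mean of the other WT libraries. With clock state as a term in the model, the log2 fold change of AOC2 between the genotypes was -0.068 (edgeR adjusted p = 0.919). Of the 10, AOC3 and LOX4 came nearest to the threshold with this term (edgeR adjusted p = 0.0672 and 0.0747). None of the 10 passed, where 5.1% of all genes tested did.

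**Figure D2:**
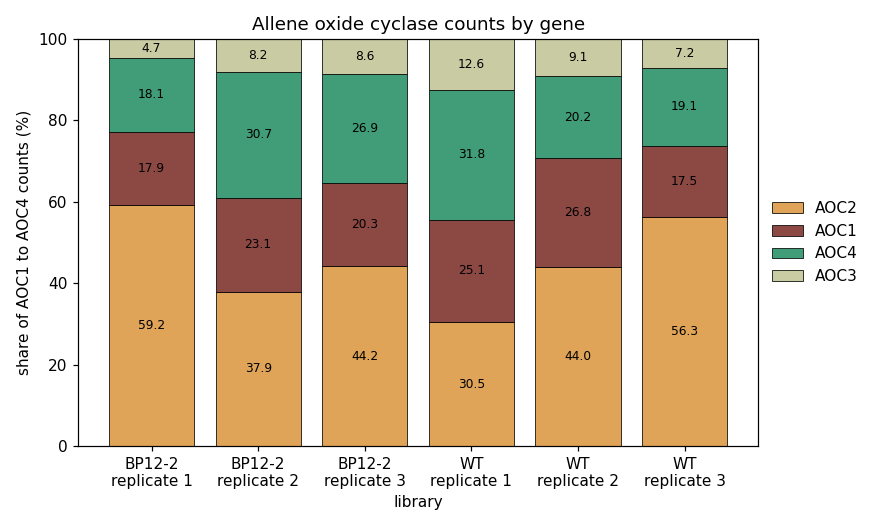
Share of the summed AOC1 to AOC4 counts (%) held by each gene in each library, BP12-2 at left and WT at right; stacked bars add to the whole. AOC2 holds 59.2% in BP12-2 replicate 1 and 56.3% in WT replicate 3, against at most 44.2% in the other libraries.

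In the 4 libraries of the commoner clock state alone, BP12-2 replicates 2 and 3 and WT replicates 1 and 2, the log2 fold changes of AOC1 and AOC2 were -0.62 and -0.25, and that of LOX2 was -0.78. None of the 10 passed there either (edgeR adjusted p from 0.129 to 0.780). Between BP12-2 replicate 1 and WT replicate 3, which allow no test, the log2 differences of AOC1 and AOC2 were 0.24 and 0.27 and that of LOX2 was -0.54.

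OPR3 (AT2G06050, chr2:2359114-2362375), which reduces OPDA, had 66.8, 55.7 and 59.9 CPM in BP12-2 and 56.3, 77.2 and 85.3 CPM in WT. WT replicate 1 again lay at the low end of BP12-2, and the log2 fold change was -0.27 ± 0.16 (SE; edgeR adjusted p = 0.423). OPR1 and OPR2 are close relatives that reduce the natural OPDA isomer poorly. Their counts are uncertain, since 14% of the 50-base words of OPR1 and 19.6% of those of OPR2 are shared with other genes and their annotated exons overlap. OPR1 was at 298 ± 53.1 CPM in BP12-2 and 227 ± 47.5 CPM in WT, and OPR2 at 55.4 ± 4.83 CPM in BP12-2 and 53.8 ± 5.36 CPM in WT (SD, n = 3 each).

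The conjugating enzyme JAR1 (AT2G46370, chr2:19033586-19036683) had the smallest spread of the 10 relative to its mean, at 121, 88.5 and 104 CPM in BP12-2 and 108, 123 and 128 CPM in WT. Its log2 fold change was -0.20 ± 0.14 (SE; edgeR adjusted p = 0.483). The inactivating enzyme CYP94B3 (AT3G48520, chr3:17974853-17976774) had 12.6, 18.5 and 15.7 CPM in BP12-2 and 14.9, 12.6 and 7.95 CPM in WT. The groups overlapped, and the log2 fold change was 0.41 ± 0.25 (SE; edgeR adjusted p = 0.419), or 0.18 without WT replicate 3. CYP94B3 was highest in BP12-2 replicate 2, where 6 of the 10 enzymes and 18.1% of all genes tested were lowest, and lowest in WT replicate 3. Its count relative to that of JAR1 was 0.104, 0.209 and 0.152 in BP12-2 and 0.139, 0.103 and 0.0619 in WT, and the groups overlapped.

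Per kilobase of exon the order of levels over all 6 libraries ran from LOX2 at 318 ± 149 RPKM (SD, n = 6) through AOS at 131 ± 30.3, AOC2 at 105 ± 60.1, AOC1 at 50.3 ± 15.4, JAR1 at 41.2 ± 5.51 and OPR3 at 39.2 ± 7.10 RPKM. AOC3 at 13.4 ± 3.22, LOX3 at 8.10 ± 2.40, CYP94B3 at 7.14 ± 1.86 and LOX4 at 3.32 ± 0.812 RPKM closed the order. LOX2 exceeded AOS in 6 of 6 libraries, AOC2 exceeded AOC1 in 6, OPR3 exceeded AOC3 in 6, AOC3 exceeded LOX3 in 6 and CYP94B3 exceeded LOX4 in 6. The neighbours AOS and AOC2, JAR1 and OPR3, and LOX3 and CYP94B3 held their order in only 4, 4 and 3 of 6 libraries, and AOC1 exceeded JAR1 in 5.

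**Figure D3:**
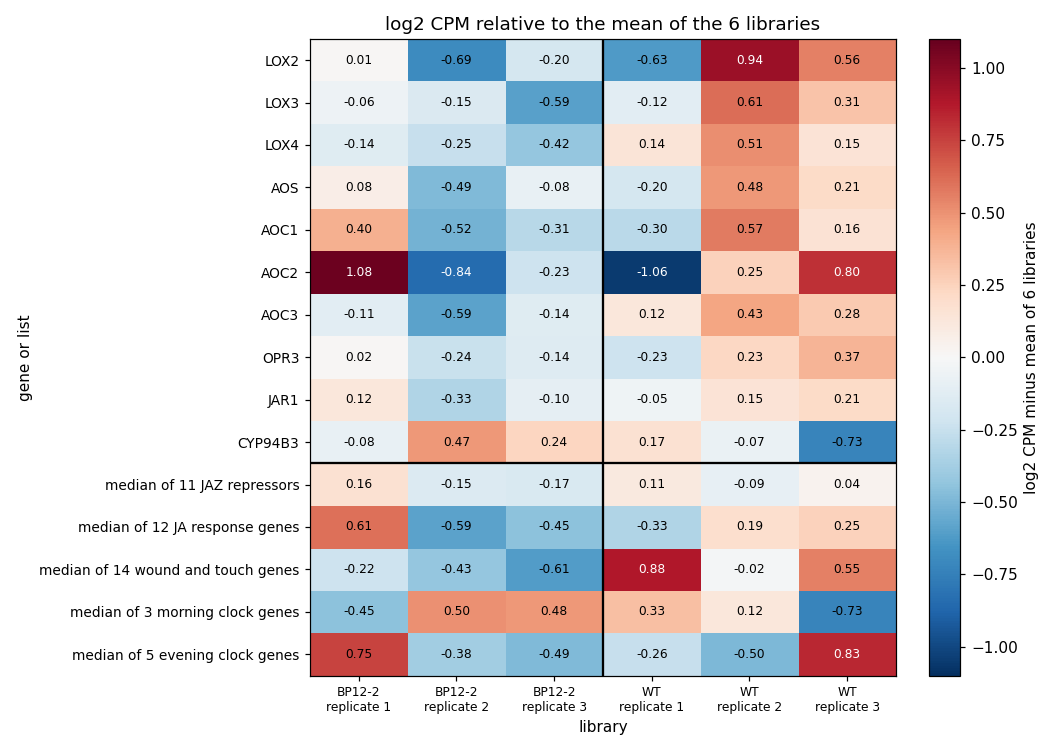
Heat map of log2 CPM relative to the mean of the 6 libraries for the 10 enzymes (upper rows) and the median of 5 gene lists (lower rows), with BP12-2 libraries at left and WT libraries at right. WT replicate 1 is at the level of BP12-2 for LOX2 (-0.63) and far above it for the wound and touch list (0.88).

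Within WT, replicate 1 had the lowest value of the 3 for 9 of the 10 enzymes, CYP94B3 being the exception, where 36.2% of all genes tested were lowest there. WT replicate 2 had the highest value of all 6 libraries for 6 of the 10, and for 17.6% of all genes tested. A list of 14 wound- and touch-induced genes, such as the calmodulin-like TCH3 and the zinc finger gene ZAT10, was ordered the other way. All 14 were lowest of the WT libraries in replicate 2, as were 30.2% of all genes tested, and 11 of 14 were highest in replicate 1, as were 36.1% of all genes. In log2 CPM centred over the 6 libraries, that list had medians of -0.22, -0.43 and -0.61 in BP12-2 replicates 1 to 3 and of 0.88, -0.02 and 0.55 in WT replicates 1 to 3. All 14 wound and touch genes had log2 fold changes below 0 (median -0.91), and their summed level was 276 to 360 CPM in BP12-2 and 390 to 744 CPM in WT. By the edgeR quasi-likelihood test 0 of 14 passed and 11 had an unadjusted p under 0.05, against 18.2% of all genes. DESeq2 called 8 of the 14 (3.25% of all genes), the edgeR exact test 9 (4.33%) and limma voom 0 (0.113%). The wound and touch list was chosen with earlier results of these data known, so its counts are no independent test. The 5 leaf markers and 7 root markers had log2 fold changes above 0, with medians of 0.42 and 0.54. By the edgeR quasi-likelihood test 0 of the 5 and 0 of the 7 passed (0.0669% of all genes). DESeq2 called 3 leaf and 2 root markers (3.25% of all genes), the edgeR exact test 2 and 2 (4.33%) and limma voom 0 and 0 (0.113%). The part of wounding and tissue make-up in the enzyme values was not tested, and fewer cells of a type and less RNA per cell cannot be told apart in these bulk samples.

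The rest of the jasmonate pathway was listed by role, and the edgeR quasi-likelihood test called 0 genes in each of 6 lists. At an unadjusted p under 0.05 stood 3 of 18 other synthesis genes, 0 of 3 genes of the competing branch, 2 of 9 other turnover genes, 1 of 9 perception genes, 0 of 11 JAZ genes and 2 of 12 response genes, against 18.2% of all genes. DESeq2 and the edgeR exact test each called 1 of these 62 genes, PDF1.2, against 3.25% and 4.33% of all genes, and limma voom called 0. BP12-2 and WT did not overlap for 10 of the 62, against 24.3% of all genes. BP12-2 was lower in 7 of them (MFP2, PXA1, LOX1, LOX5, AT5G05600, JAM3 and CORI3) and higher in 3 (FAD7, JAZ11 and PDF1.2). Among 20 other synthesis genes and relatives 18 were tested and 0 passed, with a median log2 fold change of -0.05 and 11 values below 0. The most abundant were OPR1, FAD7, ACX1 and OPCL1. FAD7, a plastid desaturase that makes linolenic acid, was at 174 ± 22.8 CPM in BP12-2 and 137 ± 10.0 CPM in WT (SD, n = 3 each; log2 fold change 0.34 ± 0.12 SE, edgeR adjusted p = 0.207). OPCL1, a ligase that activates the OPR3 product for chain shortening, was at 69.4 ± 16.2 CPM in BP12-2 and 98.4 ± 17.8 CPM in WT, and ACX1, the oxidase that begins the shortening, at 86.3 ± 5.84 CPM in BP12-2 and 96.6 ± 13.5 CPM in WT. The lipase gene DAD1, which releases linolenic acid in anthers, had 1 count in WT replicate 2 and 0 in the other 5 libraries.

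The competing branch was listed as LOX1 and LOX5, lipoxygenases that oxidise another carbon of the fatty acid, and HPL1, of an enzyme family that uses the same substrate as AOS. Of these 0 of 3 passed. Whether HPL1 makes an active enzyme in the Columbia background was not tested. LOX1 was at 205 ± 15.3 CPM in BP12-2 and 250.4 ± 40.0 CPM in WT (SD, n = 3 each), LOX5 at 12.6 ± 1.77 CPM in BP12-2 and 15.4 ± 1.02 CPM in WT, and HPL1 at 14.5 ± 2.71 CPM in BP12-2 and 15.2 ± 8.48 CPM in WT.

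Among 10 other turnover genes 9 were tested and 0 passed, with a median log2 fold change of -0.13. IAR3, a hydrolase that splits jasmonate and auxin conjugates, was at 56.0 ± 4.23 CPM in BP12-2 and 74.0 ± 15.3 CPM in WT (SD, n = 3 each). CYP94B1, a relative of CYP94B3 with the same substrate, was at 34.1 ± 3.02 CPM in BP12-2 and 41.5 ± 7.21 CPM in WT, with a log2 fold change of -0.28 ± 0.14 (SE), where that of CYP94B3 was positive. Also among the 4 most abundant were AT5G05600, annotated as an iron-dependent oxygenase, at 43.6 ± 9.29 CPM in BP12-2 and 56.4 ± 1.98 CPM in WT, and JRG21, annotated as jasmonate-regulated, at 31.6 ± 9.49 CPM in BP12-2 and 43.4 ± 11.0 CPM in WT.

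The perception list holds the COI1 receptor with transcription factors and their partners. All 9 were tested, 0 passed, and all 9 had log2 fold changes below 0, from -0.28 to -0.05 with a median of -0.17. The transcription factor genes MYC2, MYC3 and MYC4 were at 164 ± 26.4, 128 ± 12.2 and 92.7 ± 6.34 CPM in BP12-2, against 188 ± 9.80, 151 ± 11.4 and 96.0 ± 15.7 CPM in WT (SD, n = 3 each), and the co-repressor adaptor NINJA was at 83.6 ± 1.16 CPM in BP12-2 and 90.5 ± 5.80 CPM in WT. MYC2 lies within the annotated transcript of AT1G32630, so its count is uncertain. Of 12 JAZ repressor genes 11 were tested and 0 passed, with a median of -0.09. JAZ1 was at 65.0 ± 12.2 CPM in BP12-2 and 77.5 ± 5.96 CPM in WT, JAZ6 at 38.6 ± 11.6 CPM in BP12-2 and 42.7 ± 8.78 CPM in WT, JAZ9 at 34.2 ± 4.25 CPM in BP12-2 and 32.2 ± 7.06 CPM in WT, and JAZ12 at 29.4 ± 2.98 CPM in BP12-2 and 30.9 ± 2.55 CPM in WT.

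**Figure D4:**
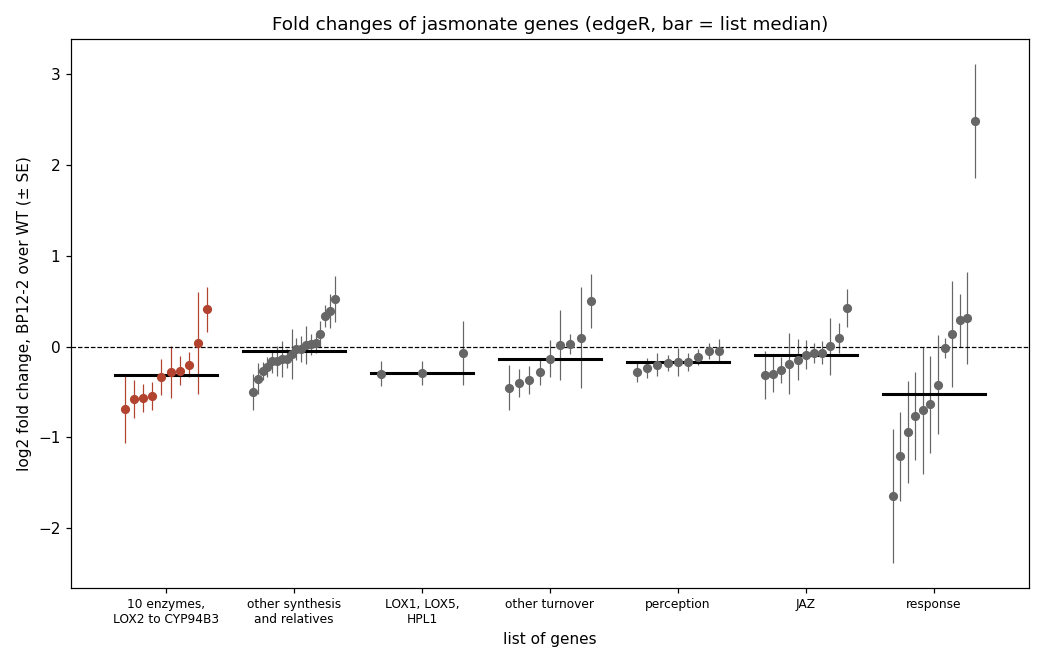
Log2 fold changes of BP12-2 over WT from edgeR (points, ± SE) for the 10 enzymes (red) and 6 further lists of jasmonate genes (grey), each ordered by value, with the list median as a black bar. The enzyme median is -0.31, and the response genes spread most widely, from TAT3 at -1.64 to PDF1.2 at 2.49.

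The response genes act downstream of the hormone. All 12 were tested and 0 passed, with 8 log2 fold changes below 0 and a median of -0.53. VSP2 and VSP1 encode vegetative storage proteins long used as jasmonate markers. VSP2 had 1124, 314 and 420 CPM in BP12-2 and 266, 581 and 643 CPM in WT, and VSP1 had 370, 76.9 and 118 CPM in BP12-2 and 99.95, 147 and 265 CPM in WT. As for AOC2, BP12-2 replicate 1 and WT replicate 3 were the 2 highest libraries of both genes, and the groups overlapped widely. The share of all genes with this order of libraries was not counted. CLH1, a chlorophyllase gene, was at 136 ± 50.9 CPM in BP12-2 and 111 ± 28.7 CPM in WT (SD, n = 3 each), and the lectin gene JR1, which shares 27.5% of its 50-base words with the neighbouring JAL34, at 446 ± 40.1 CPM in BP12-2 and 450.5 ± 34.4 CPM in WT.

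PDF1.2 and CORI3 were singled out after their values were seen. PDF1.2, a defensin gene of the ethylene-dependent branch, had 23.2, 3.01 and 9.89 CPM in BP12-2 and 1.93, 2.23 and 2.29 CPM in WT. Every BP12-2 library lay above every WT library, by margins from slight in replicate 2 to large in replicate 1, and the log2 fold change of 2.49 ± 0.63 (SE) did not pass (edgeR adjusted p = 0.118). It passed by DESeq2 (adjusted p = 0.00129), by the edgeR exact test (adjusted p = 0.00651) and with the clock state term (edgeR adjusted p = 0.0327). Without BP12-2 replicate 1 the log2 fold change of PDF1.2 was 1.67 (edgeR adjusted p = 0.137). ORA59 and ERF1, on the same list, went the other way, at -0.94 ± 0.56 and -0.42 ± 0.54 (SE; edgeR adjusted p = 0.421 and 0.729). CORI3, a jasmonate-induced lyase gene, had 42.4, 41.5 and 40.2 CPM in BP12-2 and 51.4, 185 and 50.2 CPM in WT, every BP12-2 library being below every WT library and WT replicate 2 far above the rest (log2 fold change -1.21 ± 0.49 SE, edgeR adjusted p = 0.247).

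The genes most like LOX2 over the 6 libraries were sought among 14721 genes with a mean of at least 5 CPM, by the root mean square difference of log2 CPM after centring. The nearest was AT1G73040, of the mannose-binding lectin superfamily, at 0.13, which had 6.79, 3.91 and 6.34 CPM in BP12-2 and 5.15, 12.8 and 9.09 CPM in WT. BETA-VPE, a vacuolar protease gene, followed at 0.19 and the ankyrin repeat gene AT5G15500 at 0.20. Next were ESP, annotated as epithiospecifier protein, at 0.21 and FRUCT5, a fructofuranosidase gene, at 0.22. Of the other enzymes AOS and AOC1 were nearest to LOX2, at 0.31 each, and CYP94B3 farthest, at 0.90, where the median over all candidates was 0.61.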

How the data were processed

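RNA-seq reads per gene were counted in 3 BP12-2 and 3 WT libraries. The deposited values are raw counts per gene code. The authors aligned paired-end reads to TAIR9 with Bowtie and counted them with HTSeq, per the labels' design text and the submitters' processing notes; no label states versions, counting mode or strand. Reads of overlapping or antisense genes therefore cannot be told apart. No 2 libraries were repeats (chi-square per degree of freedom at least 11.5).

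Genes were kept by filterByExpr (count minimum 10, total minimum 15), scaled by TMM and tested with the edgeR quasi-likelihood test, genotype as its only term, 2-sided, Benjamini-Hochberg adjusted (R 4.3.3, edgeR 4.0.16, limma 3.58.1, DESeq2 1.42.0). Standard errors were taken as log2 fold change over the square root of the F statistic. The test was checked on simulated data. RPKM divides CPM by the exon length in TAIR10.1, which is not the authors' build; no coordinates were converted, and sequences and coordinates are those of TAIR10.1. Centred log2 CPM uses a prior count of 2.

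The members and lists were chosen with earlier results of these data known. Named were all 10 members, list genes past the threshold or up to 4 of highest mean CPM, and the 5 genes nearest to LOX2. Of the list genes 7 carry only a family name in the annotation. Alternatives were other scaling factors, filters, tests and thresholds, a replicate block, each library left out, a term for the clock state of a library (evening minus morning clock genes above 0), and the libraries of the commoner state.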

Additional observations from a re-analysis of the deposited data

How the results depend on the processing

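Leaving 1 library out, the count of genes called by the edgeR quasi-likelihood test ranged from 0 to 56 where all 6 libraries gave 13: it was 0 without BP12-2 replicate 3 (2382 at an unadjusted p under 0.05), 1 each without BP12-2 replicate 2 and without WT replicate 2, 2 without WT replicate 3 and 56 without WT replicate 1. It was 56 with no filter, 22 by limma voom, 622 by DESeq2 (279 higher, 343 lower), 841 by the edgeR exact test (398 higher, 443 lower), 992 with the clock state term, 38 in the libraries of the commoner clock state, 1 at a threshold of 0.01 and 463 at 0.1. The cause was not tested. The count among the 10 enzymes was 0 under every setting run except the exact test, which gave 1 (AOC3).

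With a replicate block 0 genes were called (2558 at an unadjusted p under 0.05). Same-numbered libraries share only a number: the correlations of their deviations from the group means were -0.31, 0.06 and -0.30 for replicates 1 to 3.

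Over 17 settings 9 of the 10 enzymes kept the sign of their log2 fold change. AOC2, at 0.04, turned to -0.093 with the replicate block, -0.068 with the clock state term and -0.25 in the libraries of the commoner clock state, and ranged from -0.69 without BP12-2 replicate 1 to 0.49 without WT replicate 3; it was -0.32 without WT replicate 1. Leaving 1 library out, LOX2 (-1.02 to -0.34), LOX3 (-0.74 to -0.39) and AOS (-0.50 to -0.17) were lowest without WT replicate 1 and nearest to 0 without WT replicate 2. AOC1 ranged from -0.60 without BP12-2 replicate 1 to -0.04 without WT replicate 2, OPR3 from -0.42 without WT replicate 1 to -0.14 without WT replicate 3, and JAR1 from -0.32 without BP12-2 replicate 1 to -0.094 without BP12-2 replicate 2. CYP94B3 ranged from 0.18 without WT replicate 3 to 0.60 without WT replicate 1, LOX4 from -0.65 to -0.43 and AOC3 from -0.62 to -0.42. With the longest transcript as length, JAR1 was at 48.1 RPKM. Depth limits LOX4 most, which had 55 to 191 counts per library.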
